A study of Mus musculus with 4 samples.

Results

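Il2ra+ Foxp3- cells were examined among mouse thymocytes that had been sorted as CD4+CCR7+ and profiled in single-cell droplets, with RNA counted as unique molecular identifiers (UMIs). The study set thymocytes of Cgas KO mice (Cd4Cre Cgas fl/fl) against those of WT mice that carry Cd4Cre alone, so both genotypes carried the Cre transgene. Each genotype gave 1 expression library and 1 T cell receptor (TCR) library, and the labels give neither the age nor the number of mice behind a library. Cd4Cre expresses Cre recombinase from Cd4 regulatory sequences, so the floxed Cgas alleles are targeted in T-lineage cells and the thymic stroma keeps the gene. A droplet barcode was kept with at least 2000 UMIs, at least 500 genes and at most 10% mitochondrial UMIs, and is called a cell here. Cells were chosen by their measured counts: a kept cell counted as Il2ra+ Foxp3- with at least 1 Il2ra UMI and with no UMI of Foxp3, Cd8a, Cd8b1 or Rag1. This rule took 251 of 14381 cells in the Cgas KO library and 288 of 12929 cells in the WT library, 539 of 27310 in all. The other 2 groups met the same Cd8a, Cd8b1 and Rag1 conditions and served for comparison: 278 Cgas KO and 386 WT cells with a Foxp3 UMI (Foxp3+ cells), and 9113 Cgas KO and 7767 WT cells with no UMI of either gene (Il2ra- Foxp3- cells).

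Il2ra encodes CD25, the alpha chain that gives the interleukin-2 receptor its high affinity, and Foxp3 encodes the transcription factor that defines regulatory T (Treg) cells. In the thymus, CD4+ thymocytes with strong self-reactive TCR signals turn on CD25 and the TNF receptors GITR (Tnfrsf18), OX40 (Tnfrsf4) and 4-1BB (Tnfrsf9), and interleukin-2 acting through STAT5 then helps to induce Foxp3. CD25+ Foxp3- thymocytes are known as a precursor stage of thymic Treg cells, next to a Foxp3-low CD25- stage. TCR and TNF receptor signals both reach NF-kappaB, a family of dimeric transcription factors held in the cytoplasm by inhibitors such as the product of Nfkbia.

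Promoter sequences are shown for Il2ra, whose transcript marks the cells, and for Tnfrsf9 and Nr4a1, which were higher in them than in both other groups (values below), because these 3 windows held a match to the NF-kappaB consensus. The windows run from 250 bases before to 50 bases after the start site, from RefSeq on GRCm38.p6, all on the plus strand, and capitals mark the matches. They lie at chr2:11642542-11642841 (Il2ra), chr4:150927749-150928048 (the downstream start of Tnfrsf9) and chr15:101266596-101266895 (Nr4a1).
Il2ra: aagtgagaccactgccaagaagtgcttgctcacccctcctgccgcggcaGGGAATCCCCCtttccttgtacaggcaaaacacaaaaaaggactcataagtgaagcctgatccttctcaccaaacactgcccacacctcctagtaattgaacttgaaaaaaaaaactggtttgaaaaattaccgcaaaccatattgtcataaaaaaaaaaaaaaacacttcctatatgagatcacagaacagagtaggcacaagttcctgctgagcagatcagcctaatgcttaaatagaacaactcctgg
Tnfrsf9: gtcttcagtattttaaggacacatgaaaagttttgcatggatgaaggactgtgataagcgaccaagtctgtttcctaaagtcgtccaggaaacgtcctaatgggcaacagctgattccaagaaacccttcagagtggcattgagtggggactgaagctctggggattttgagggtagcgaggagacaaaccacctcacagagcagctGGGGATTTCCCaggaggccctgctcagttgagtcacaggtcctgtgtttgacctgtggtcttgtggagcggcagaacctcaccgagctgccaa
Nr4a1: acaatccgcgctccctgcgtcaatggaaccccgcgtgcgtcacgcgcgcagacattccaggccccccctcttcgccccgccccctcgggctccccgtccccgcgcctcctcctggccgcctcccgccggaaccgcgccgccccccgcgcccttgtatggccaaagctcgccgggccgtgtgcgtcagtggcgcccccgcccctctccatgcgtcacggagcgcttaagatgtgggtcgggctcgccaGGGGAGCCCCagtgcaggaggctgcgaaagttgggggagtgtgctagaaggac
Il2ra held 2 overlapping matches beginning 201 and 200 bases before the start site, Tnfrsf9 held 2 overlapping matches beginning 43 and 42 bases before it, and the match of Nr4a1 began 3 bases before it. Both strands were searched, and overlapping matches were counted separately. The promoters searched were those of Il2ra, Tnfrsf4, Tnfrsf9, Tnfrsf18, Nr4a1 and the 10 genes named as most raised over Il2ra- Foxp3- cells. Matching by symbol gave 15 promoters for 12 of these 15 genes, with Cd83, Lrrc32 and Bhlhe40 unmatched. The consensus was found in 3 of the 15 promoters and in 8.46% of all 32851 promoters of the table, so the windows of Tnfrsf4 and Tnfrsf18 and the upstream start of Tnfrsf9 held none. No window held the NR4A element AAAGGTCA, the CREB element TGACGTCA or the EGR element GCGTGGGCG, which 1.51%, 1.79% and 0.612% of all promoters held. A match is a stretch of letters and not a measured binding site.

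The libraries held 87310091 (Cgas KO) and 84763106 (WT) UMIs over all barcodes, and kept cells had medians of 4507 and 4943 UMIs. Cgas itself had 221 UMIs in kept Cgas KO cells (2.92 CPM, 95% interval 2.55 to 3.34) and 337 in kept WT cells (4.49 CPM, 4.03 to 5.0), and 3 and 5 UMIs in Il2ra+ Foxp3- cells, where CPM is the gene's UMIs over all UMIs of the summed cells, scaled to 1e+06. The labels name a 3' expression kit beside a TCR kit, and which end of the transcripts was counted is not settled here. Tags at the 3' end may lie outside the deleted part of the gene, so whether this lower level reflects the deletion was not tested. The Cgas KO library also held 583 sets of cells with identical TCR chains, all of them pairs and 8.11% of its kept cells, against 17 sets and 0.271% in WT. Of these cells, 27 Cgas KO and 2 WT Il2ra+ Foxp3- cells were in such sets. Results that rest on cell numbers are therefore also given with 1 cell kept per set. A further 276 barcodes were kept in both libraries, and 11 Cgas KO and 7 WT Il2ra+ Foxp3- cells carried such a barcode, none of them in that class in both libraries.

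The cells carried T cell transcripts, and the markers that name them were present beside Il2ra itself. All 11 T cell markers were detected in the Il2ra+ Foxp3- cells of both libraries (summed 7002 CPM in Cgas KO and 7026 CPM in WT). The other 2 markers behind the name Treg precursor-like, Tnfrsf18 and Tnfrsf4, were each detected far more often than in Il2ra- Foxp3- cells, as given below, and Il2ra was used by the rule and is no evidence. Most cells entered on little Il2ra RNA: 164 of 251 Cgas KO cells (65.3%) and 171 of 288 WT cells (59.4%) had exactly 1 Il2ra UMI, and the highest counts were 13 and 10 UMIs. The share of cells with an Il2ra UMI among CD8-lineage cells (at least 2 UMIs of Cd8a and Cd8b1), which should hold little of it, was 1.88% in Cgas KO (95% exact binomial interval 1.23 to 2.75, median 4279 UMIs) and 2.30% in WT (1.58 to 3.24, median 4795.5 UMIs). Il2ra+ Foxp3- cells made up 2.60% (2.30 to 2.94) and 3.41% (3.04 to 3.82) of the cells meeting the Cd8a, Cd8b1 and Rag1 conditions, so the intervals overlapped those of the CD8-lineage cells. The 2 shares are not alike, because the CD8-lineage share also counted cells with a Foxp3 UMI. With Foxp3+ cells counted too, 342 of 9642 Cgas KO and 431 of 8441 WT cells meeting the conditions had an Il2ra UMI. In barcodes with at least 20 and under 200 UMIs, which hold mainly free RNA, Il2ra stood at 29.2 CPM in Cgas KO and 31.5 CPM in WT. How many cells entered through free Il2ra RNA was not tested.

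The TNF receptors and Treg-associated genes were far higher in Il2ra+ Foxp3- cells than in Il2ra- Foxp3- cells, and part of them exceeded the level of Foxp3+ cells while another part stayed below it. Levels below are CPM, each pair giving Cgas KO and then WT, and differences are log2 fold changes with standard errors from edgeR's quasi-likelihood test over the 6 sums (3 groups in 2 libraries), with p-values adjusted by the Benjamini-Hochberg method over all 12374 genes tested. Tnfrsf4 stood at 843 and 819 CPM (Cgas KO and WT) in Il2ra+ Foxp3- cells, 538 and 476 in Foxp3+ cells and 145.0 and 147 in Il2ra- Foxp3- cells. In both libraries the order was the same, and the log2 difference was 0.67 ± 0.055 from Foxp3+ cells (adjusted p = 8.94e-09) and 2.51 ± 0.049 from Il2ra- Foxp3- cells (4.04e-20). Tnfrsf9 stood at 436 and 444 CPM in Il2ra+ Foxp3- cells (Cgas KO and WT), 169.5 and 176 in Foxp3+ cells and 63.1 and 64.0 in Il2ra- Foxp3- cells. It thus rose over both groups, by 1.29 ± 0.068 over Foxp3+ cells (adjusted p = 2.29e-11) and by 2.79 ± 0.055 over Il2ra- Foxp3- cells (4.04e-20). Tnfrsf18 stood at 427 and 400 CPM in Il2ra+ Foxp3- cells (Cgas KO and WT), 375 and 386 in Foxp3+ cells and 135 and 137 in Il2ra- Foxp3- cells. Its difference of 0.06 ± 0.061 from Foxp3+ cells did not pass the threshold (adjusted p = 0.604), whereas that from Il2ra- Foxp3- cells was 1.60 ± 0.054 (1.09e-15). Ikzf2, which encodes the transcription factor Helios, showed the same pattern, with 969.9 and 919 CPM in Il2ra+ Foxp3- cells (Cgas KO and WT), 926 and 753 in Foxp3+ cells and 191 and 168 in Il2ra- Foxp3- cells. It rose by 2.40 ± 0.048 over Il2ra- Foxp3- cells (adjusted p = 4.04e-20) and differed by 0.13 ± 0.051 from Foxp3+ cells (0.101). Of the Foxp3+ cells, 91 Cgas KO and 143 WT cells had an Il2ra UMI. In these, Tnfrsf4 stood at 1003 and 773 CPM, Tnfrsf9 at 225 and 225, Tnfrsf18 at 654 and 578 and Ikzf2 at 1123 and 909. Compared with Il2ra+ Foxp3- cells, Tnfrsf9 was thus lower in both libraries and Tnfrsf18 higher in both. Tnfrsf4 and Ikzf2 were higher in Cgas KO only. This split was not tested.

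**Figure D1:**
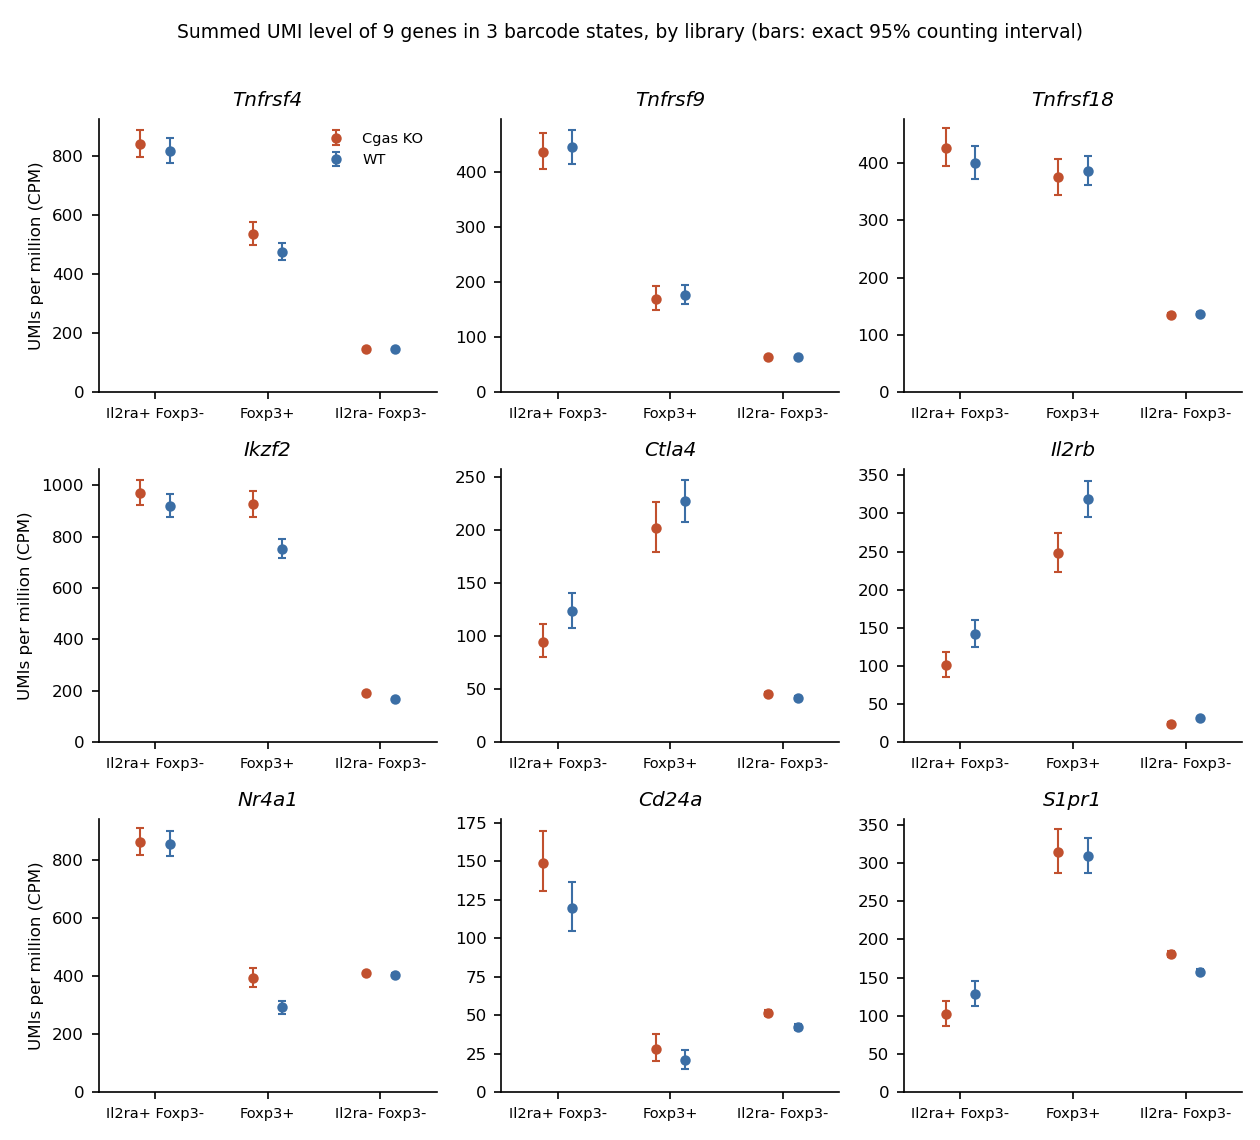
Levels in CPM (linear axes from 0) of 9 genes in Il2ra+ Foxp3- cells, Foxp3+ cells and Il2ra- Foxp3- cells; each point is the sum over a library's cells (Cgas KO left of WT), and bars are exact 95% counting intervals. Among these 3 groups, Tnfrsf4 and Tnfrsf9 are highest in Il2ra+ Foxp3- cells in both libraries, and S1pr1 and Il2rb are highest in Foxp3+ cells.

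Detection in single cells gave the same picture at equal depth. Il2ra+ Foxp3- cells were deeper than the others, with medians of 5121 and 5493.5 UMIs (Cgas KO and WT), against 4430.0 and 4792 in Foxp3+ cells and 4440.0 and 4894 in Il2ra- Foxp3- cells, so every cell was thinned to 2000 UMIs. Tnfrsf9 was then detected in 35.1% and 38.9% of Il2ra+ Foxp3- cells (Cgas KO and WT), 21.9% and 21.2% of Foxp3+ cells, 7.71% and 7.62% of Il2ra- Foxp3- cells and 9.99% and 9.21% of CD8-lineage cells. Tnfrsf4 was detected in 62.2% and 55.2% of Il2ra+ Foxp3- cells (Cgas KO and WT), 47.1% and 51.8% of Foxp3+ cells and 19.8% and 19.8% of Il2ra- Foxp3- cells, with 4.05% and 4.53% in CD8-lineage cells. Before thinning its share in Il2ra+ Foxp3- cells was 74.9% and 78.1%. Tnfrsf18 was detected in 50.6% and 48.3% of Il2ra+ Foxp3- cells (Cgas KO and WT), 45.0% and 49.7% of Foxp3+ cells and 22.3% and 21.8% of Il2ra- Foxp3- cells, with 10.6% and 12.3% in CD8-lineage cells. Each of these shares in Il2ra+ Foxp3- cells lay above the CD8-lineage share. CD8-lineage cells are thymocytes and no blank, and held Tnfrsf9 more often than Il2ra- Foxp3- cells. Ikzf2 was detected in 57.0% and 55.2% of Il2ra+ Foxp3- cells (Cgas KO and WT) and 32.6% and 25.9% of CD8-lineage cells. In Il2ra- Foxp3- cells its shares were 15.0% and 13.1%. Of the 5 genes Tnfrsf18, Tnfrsf4, Tnfrsf9, Ikzf2 and Ctla4, none was detected in 13.9% and 15.3% of Il2ra+ Foxp3- cells (Cgas KO and WT) after thinning, against 21.6% and 17.4% of Foxp3+ cells and 52.8% and 54.5% of Il2ra- Foxp3- cells. Without thinning, 18 of 251 Cgas KO and 21 of 288 WT Il2ra+ Foxp3- cells had none of the 5, and 26 and 38 had all of them.

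**Figure D2:**
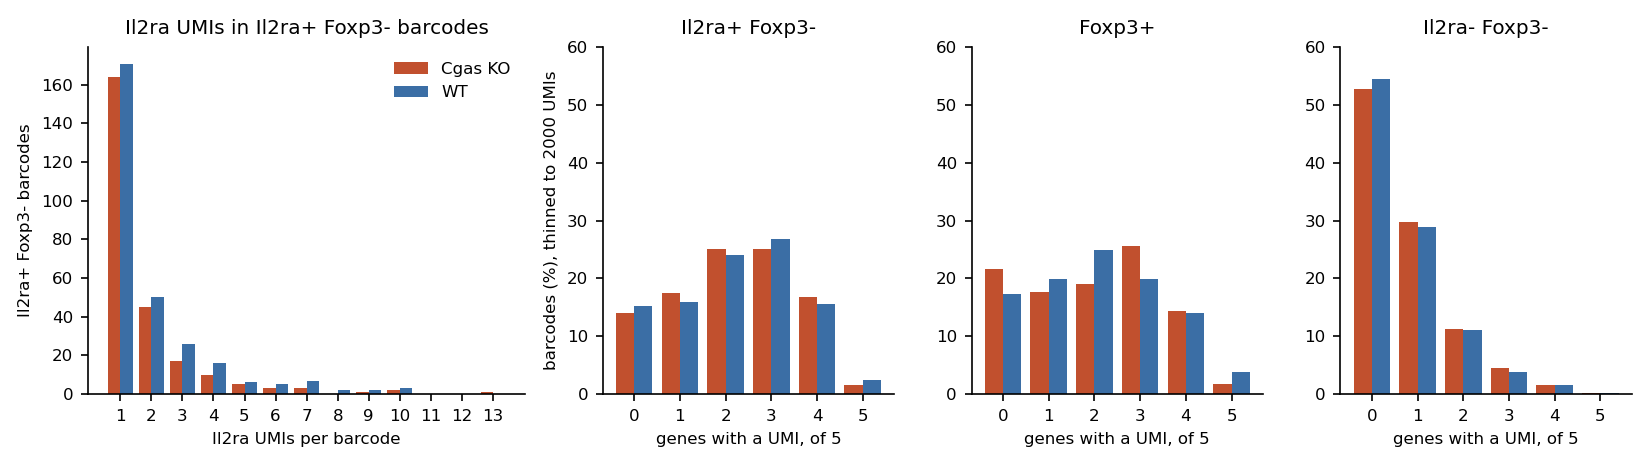
The left panel counts Il2ra+ Foxp3- cells by their Il2ra UMIs, 164 Cgas KO and 171 WT cells having 1. The other panels give, for each group, the percent of cells (y axis) by how many of 5 Treg-associated genes had a UMI after thinning to 2000 UMIs (x axis), Cgas KO left of WT: the value 0 holds 13.9% and 15.3% of Il2ra+ Foxp3- cells (Cgas KO and WT) against 52.8% and 54.5% of Il2ra- Foxp3- cells.

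The wider Treg list split in the same way. Of its 20 tested genes, 15 rose and 0 fell in Il2ra+ Foxp3- cells over Il2ra- Foxp3- cells (median log2 difference 1.59, against -0.01 over all genes), where 12.1% of all genes tested rose and 9.22% fell (21.3% either way). Against Foxp3+ cells 4 rose and 9 fell (median -0.68, all genes -0.02), where 8.69% of all genes rose and 9.59% fell (18.3% either way). Both comparisons use the same Il2ra+ Foxp3- cells. Cd83, a surface protein of activated lymphocytes and of Treg cells, stood at 66.2 and 64.6 CPM in Il2ra+ Foxp3- cells (Cgas KO and WT), 30.8 and 45.8 in Foxp3+ cells and 2.48 and 3.02 in Il2ra- Foxp3- cells. It rose over both groups, by 0.70 ± 0.20 (adjusted p = 0.0153) and 4.57 ± 0.19 (5.96e-14). In Foxp3+ cells with an Il2ra UMI, Cd83 stood at 72.2 and 68.6 CPM (Cgas KO and WT). Lrrc32, which encodes GARP, the receptor that holds latent TGF-beta on the Treg cell surface, stood at 24.7 and 28.8 CPM in Il2ra+ Foxp3- cells (Cgas KO and WT), 40.3 and 35.3 in Foxp3+ cells and 1.26 and 1.66 in Il2ra- Foxp3- cells. It rose by 4.20 ± 0.28 over the last group (adjusted p = 1.67e-10). Ctla4, the inhibitory receptor that binds CD80 and CD86, lay between the groups, with 94.8 and 123 CPM in Il2ra+ Foxp3- cells (Cgas KO and WT), 202 and 227 in Foxp3+ cells and 45.4 and 42.0 in Il2ra- Foxp3- cells. It fell by 1.03 ± 0.11 relative to Foxp3+ cells (adjusted p = 4.36e-07) and rose by 1.33 ± 0.11 over Il2ra- Foxp3- cells (4.97e-09). Gpr83, a receptor enriched in Treg cells, stood at 55.8 and 43.4 CPM in Il2ra+ Foxp3- cells (Cgas KO and WT), 131 and 148 in Foxp3+ cells and 42.5 and 56.3 in Il2ra- Foxp3- cells. It fell by 1.56 ± 0.15 relative to Foxp3+ cells (adjusted p = 6.13e-08) and did not differ from Il2ra- Foxp3- cells past the threshold (-0.01 ± 0.14, 0.974). Ikzf4, which encodes the Helios relative Eos, fell by 1.06 ± 0.16 relative to Foxp3+ cells (adjusted p = 3.62e-05), and Nrp1, the neuropilin receptor, by 1.12 ± 0.25 (0.00232). The Nrp1 call against Foxp3+ cells was lost after thinning (adjusted p = 0.929), which leaves fewer UMIs and made far fewer calls over all genes. For every call after thinning, the 3 groups were also formed anew from the thinned counts, so their cells changed. The rule then took 202 Cgas KO and 214 WT cells, whereas 139 of the 251 and 163 of the 288 original cells kept an Il2ra UMI. The detection shares after thinning kept the original groups.

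Signalling adaptors of the TNF receptors followed the receptors in part. Of the 15 tested genes of this superfamily and its adaptors, 9 rose and 3 fell over Il2ra- Foxp3- cells (median 0.62). Of all genes 12.1% and 9.22% did so. Over Foxp3+ cells 3 rose and 3 fell (median 0.17), against 8.69% and 9.59% of all genes. Traf1, an NF-kappaB-induced adaptor, stood at 85.7 and 93.4 CPM in Il2ra+ Foxp3- cells (Cgas KO and WT), 68.3 and 82.9 in Foxp3+ cells and 26.5 and 28.3 in Il2ra- Foxp3- cells. It rose by 1.71 ± 0.11 over the last group (adjusted p = 4.42e-11). Fas, the death receptor, rose over both groups, with 116 and 150 CPM in Il2ra+ Foxp3- cells (Cgas KO and WT), 88.2 and 109.5 in Foxp3+ cells and 63.4 and 65.3 in Il2ra- Foxp3- cells (0.36 ± 0.11, adjusted p = 0.0288, and 1.06 ± 0.091, 1.03e-08). Traf5, another adaptor, fell relative to both groups, with 19.5 and 19.5 CPM in Il2ra+ Foxp3- cells (Cgas KO and WT), 35.5 and 43.6 in Foxp3+ cells and 34.1 and 34.5 in Il2ra- Foxp3- cells. Both Traf5 calls were lost after thinning (adjusted p = 0.642 and 0.636). That of Fas against Foxp3+ cells was lost with DESeq2 (0.089), without the library block (0.11) and after thinning (0.772). In Foxp3+ cells with an Il2ra UMI, Fas stood at 118 and 129 CPM (Cgas KO and WT).

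Targets of recent TCR signalling mostly stood above both other groups in Il2ra+ Foxp3- cells. Of 25 tested TCR-induced genes, 19 rose and 1 fell over Il2ra- Foxp3- cells (median 0.95), against 12.1% and 9.22% of all genes. Over Foxp3+ cells 12 rose and 1 fell (median 0.27), against 8.69% and 9.59% of all genes. Il2ra+ Foxp3- cells had the highest level of the 3 groups for 17 of the 25 genes in the Cgas KO library and 18 in the WT library. How many of all genes were highest in this group was not counted, so these numbers are a description only. Nr4a1, which encodes the orphan nuclear receptor Nur77 and reports TCR signal strength, stood at 862 and 856 CPM in Il2ra+ Foxp3- cells (Cgas KO and WT), 395 and 293 in Foxp3+ cells and 410.2 and 405 in Il2ra- Foxp3- cells. It rose by 1.29 ± 0.076 over Foxp3+ cells (adjusted p = 2.51e-09) and by 1.08 ± 0.060 over Il2ra- Foxp3- cells (5.67e-10). Its relative Nr4a3 stood at 205 and 208 CPM in Il2ra+ Foxp3- cells (Cgas KO and WT), 65.6 and 44.1 in Foxp3+ cells and 60.4 and 53.4 in Il2ra- Foxp3- cells. It rose by 1.91 ± 0.12 and 1.87 ± 0.082 (adjusted p = 2.01e-10 and 1.02e-13). Gadd45b, a stress and NF-kappaB response gene, was among the 10 most raised over Foxp3+ cells, with 288 and 263 CPM in Il2ra+ Foxp3- cells (Cgas KO and WT), 34.2 and 33.2 in Foxp3+ cells and 38.8 and 38.7 in Il2ra- Foxp3- cells. The groups did not overlap, and it rose by 2.97 ± 0.11 over Foxp3+ cells (adjusted p = 7.76e-14) and by 2.83 ± 0.070 over Il2ra- Foxp3- cells (3.31e-18). Cd69, an early activation marker that also retains thymocytes, stood at 340.2 and 303.5 CPM in Il2ra+ Foxp3- cells (Cgas KO and WT), 254 and 258 in Foxp3+ cells and 196 and 210.3 in Il2ra- Foxp3- cells, and its log2 differences were 0.27 ± 0.075 (adjusted p = 0.0142) and 0.66 ± 0.061 (2.95e-08). The Cd69 call against Foxp3+ cells was lost with at least 2 Il2ra UMIs (0.123) and after thinning (0.769). Irf4, a transcription factor induced in proportion to TCR signals, stood at 51.3 and 46.2 CPM in Il2ra+ Foxp3- cells (Cgas KO and WT), 15.0 and 15.3 in Foxp3+ cells and 22.0 and 21.0 in Il2ra- Foxp3- cells. Nfkbid, which encodes the nuclear IkappaB protein IkappaBNS, stood at 216 and 206 CPM in Il2ra+ Foxp3- cells (Cgas KO and WT), 76.5 and 81.6 in Foxp3+ cells and 79.4 and 84.7 in Il2ra- Foxp3- cells. Irf4 and Nfkbid rose over both groups, by 1.61 ± 0.20 and 1.35 ± 0.095 over Foxp3+ cells (adjusted p = 3.76e-06 and 8.32e-10). The list was not uniform: Dusp4, Spry1, Pdcd1 and Cd200 rose over Il2ra- Foxp3- cells, by 1.36 to 2.75, and did not differ from Foxp3+ cells past the threshold. Egr1 fell by 0.35 ± 0.12 relative to Il2ra- Foxp3- cells (adjusted p = 0.041), with 81.2 and 61.4 CPM in Il2ra+ Foxp3- cells (Cgas KO and WT), 54.0 and 80.3 in Foxp3+ cells and 87.5 and 91.7 in Il2ra- Foxp3- cells. The Egr1 call was lost with DESeq2 (adjusted p = 0.31), without the library block (0.187), with at least 3000 UMIs per cell (0.0766) and after thinning (0.453). Rgs1, a regulator of chemokine receptor signalling, stood at 80.5 and 90.7 CPM in Il2ra+ Foxp3- cells (Cgas KO and WT) and at 165 and 207 in Foxp3+ cells, and fell by 1.18 ± 0.098 (adjusted p = 1.02e-08).

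Subunits, inhibitors and targets of NF-kappaB were raised alongside. Of 20 tested genes, 12 rose and 1 fell over Il2ra- Foxp3- cells (median 0.74), against 12.1% and 9.22% of all genes. Over Foxp3+ cells 8 rose and 1 fell (median 0.23), against 8.69% and 9.59% of all genes. Nfkb1, which encodes the p105 and p50 subunit, stood at 575 and 526 CPM in Il2ra+ Foxp3- cells (Cgas KO and WT), 269 and 231 in Foxp3+ cells and 208 and 204 in Il2ra- Foxp3- cells. Rel, which encodes c-Rel, a subunit needed for thymic Treg cells, stood at 321 and 271 CPM in Il2ra+ Foxp3- cells (Cgas KO and WT), 179 and 173 in Foxp3+ cells and 106 and 99.1 in Il2ra- Foxp3- cells. Nfkbia stood at 799 and 783 CPM in Il2ra+ Foxp3- cells (Cgas KO and WT), 514 and 492 in Foxp3+ cells and 362 and 329 in Il2ra- Foxp3- cells. All 3 were highest in Il2ra+ Foxp3- cells in both libraries, and rose over Foxp3+ cells by 1.09 ± 0.064, 0.68 ± 0.076 and 0.59 ± 0.054 (adjusted p = 9.18e-11, 7.96e-07 and 3.69e-08). Nfkb2 and Relb, of the alternative pathway, also rose over both groups, by 1.08 ± 0.13 and 0.62 ± 0.11 over Foxp3+ cells and by 1.77 ± 0.095 and 0.88 ± 0.085 over Il2ra- Foxp3- cells. The Relb call against Foxp3+ cells was lost after thinning (adjusted p = 0.211). Rela, which encodes p65, did not pass the threshold in either comparison, with 63.6 and 63.0 CPM in Il2ra+ Foxp3- cells (Cgas KO and WT), 61.5 and 52.8 in Foxp3+ cells and 54.3 and 59.2 in Il2ra- Foxp3- cells. Malt1 and Bcl10, which link the TCR to this pathway, did not pass the threshold against Il2ra- Foxp3- cells. Nfkbie, an inhibitor gene, rose over Foxp3+ cells by 0.81 ± 0.23 (adjusted p = 0.0155), a call lost with DESeq2's Wald test (0.0575) and after thinning (0.48). Mir155hg, the host transcript of the microRNA miR-155, stood at 43.5 and 40.2 CPM in Il2ra+ Foxp3- cells (Cgas KO and WT), 6.83 and 5.24 in Foxp3+ cells and 2.70 and 2.72 in Il2ra- Foxp3- cells. It rose by 2.76 ± 0.32 and 3.95 ± 0.23 over these groups (adjusted p = 1.09e-06 and 2.22e-11).

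Genes of both survival and death rose within the BCL-2 family. Of 19 tested apoptosis regulators, 8 rose and 0 fell over Il2ra- Foxp3- cells (median 0.27), against 12.1% and 9.22% of all genes. Over Foxp3+ cells 5 rose and 3 fell (median 0.10), against 8.69% and 9.59% of all genes. Bcl2l1, which encodes the survival protein BCL-XL, stood at 134 and 143 CPM in Il2ra+ Foxp3- cells (Cgas KO and WT), 34.9 and 26.2 in Foxp3+ cells and 33.1 and 33.2 in Il2ra- Foxp3- cells. It rose by 2.17 ± 0.14 and 2.07 ± 0.093 over these groups (adjusted p = 3.46e-10 and 1.61e-13). Bcl2a1d, of the A1 survival family, stood at 131 and 169 CPM in Il2ra+ Foxp3- cells (Cgas KO and WT), 34.9 and 37.1 in Foxp3+ cells and 19.9 and 22.0 in Il2ra- Foxp3- cells, and its near-identical copy Bcl2a1b moved with it, so reads may be split between them uncertainly. Bcl2l11, which encodes the pro-apoptotic BIM of thymic deletion, stood at 182 and 161 CPM in Il2ra+ Foxp3- cells (Cgas KO and WT), 85.4 and 78.5 in Foxp3+ cells and 80.2 and 77.2 in Il2ra- Foxp3- cells. It rose by 1.0 ± 0.097 over Foxp3+ cells (adjusted p = 9.85e-08), a call lost after thinning (0.423), and by 1.12 ± 0.071 over Il2ra- Foxp3- cells (7.34e-11). Bcl2 and Mcl1 fell relative to Foxp3+ cells, by 0.37 ± 0.058 and 0.32 ± 0.061 (adjusted p = 5.78e-05 and 0.000498, the Mcl1 call being lost after thinning at 0.289), and did not differ from Il2ra- Foxp3- cells past the threshold.

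The remaining interleukin-2 receptor chains and STAT5 targets did not move as a block. Of 15 tested genes, 6 rose and 1 fell over Il2ra- Foxp3- cells (median 0.12), against 12.1% and 9.22% of all genes. Over Foxp3+ cells 2 rose and 5 fell (median -0.27), against 8.69% and 9.59% of all genes. The count of 2 is close to that share. Il2rb, the beta chain that carries the signal, stood at 101 and 142 CPM in Il2ra+ Foxp3- cells (Cgas KO and WT), 248 and 319 in Foxp3+ cells and 24.5 and 31.9 in Il2ra- Foxp3- cells. It lay between the groups in both libraries, with log2 differences of -1.27 ± 0.084 from Foxp3+ cells (adjusted p = 3.46e-10) and 2.12 ± 0.090 from Il2ra- Foxp3- cells (6.52e-14). Il2rg, the shared gamma chain, stood at 743 and 682 CPM in Il2ra+ Foxp3- cells (Cgas KO and WT), 556 and 562 in Foxp3+ cells and 645 and 668 in Il2ra- Foxp3- cells. Cish, a STAT5-induced feedback inhibitor, stood at 106 and 117 CPM in Il2ra+ Foxp3- cells (Cgas KO and WT), 116 and 120.0 in Foxp3+ cells and 22.0 and 25.8 in Il2ra- Foxp3- cells. Its rise over Il2ra- Foxp3- cells was 2.22 ± 0.099 (adjusted p = 1.44e-13), and its difference from Foxp3+ cells of -0.13 ± 0.11 did not pass the threshold (0.442). Socs2, another STAT5 target, had 7.79 and 12.5 CPM in Il2ra+ Foxp3- cells (Cgas KO and WT), 15.7 and 19.2 in Foxp3+ cells and 0.326 and 0.691 in Il2ra- Foxp3- cells. It rose by 4.32 ± 0.44 over the last group (adjusted p = 1.56e-07). Stat5a rose over Il2ra- Foxp3- cells by 1.06 ± 0.088 (adjusted p = 5.44e-09) and over Foxp3+ cells by 0.45 ± 0.11 (0.00546, and 0.471 after thinning), whereas Stat5b fell relative to Foxp3+ cells by 0.42 ± 0.071 (0.00013).

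Among the other cytokine receptors, 3 of 17 tested genes rose and 6 fell relative to Il2ra- Foxp3- cells (median -0.08). Of all genes 12.1% rose and 9.22% fell. Relative to Foxp3+ cells 1 rose and 8 fell (median -0.28), against 8.69% and 9.59% of all genes. The counts of rising genes are close to these shares. Il7r, the receptor for the survival cytokine interleukin-7, stood at 170.1 and 149 CPM in Il2ra+ Foxp3- cells (Cgas KO and WT), 193 and 191 in Foxp3+ cells and 303 and 334 in Il2ra- Foxp3- cells. It fell relative to both groups, by 0.33 ± 0.092 and 1.01 ± 0.071 (adjusted p = 0.0139 and 3.81e-10). The Il7r call against Foxp3+ cells was lost with DESeq2 (0.0508), without cells of 2 or more beta chains (0.118), among cells with both TCR chains (0.0666) and after thinning (0.768). Ifngr1 stood at 97.4 and 89.0 CPM in Il2ra+ Foxp3- cells (Cgas KO and WT), 224 and 210.3 in Foxp3+ cells and 88.5 and 85.4 in Il2ra- Foxp3- cells. It fell by 1.28 ± 0.089 relative to Foxp3+ cells (adjusted p = 6.77e-10). Of the TGF-beta receptors, Tgfbr1 rose over Il2ra- Foxp3- cells by 0.80 ± 0.099 (adjusted p = 2.34e-06) while Tgfbr2 fell by 0.36 ± 0.066 (0.000237, and 0.241 after thinning).

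**Figure D3:**
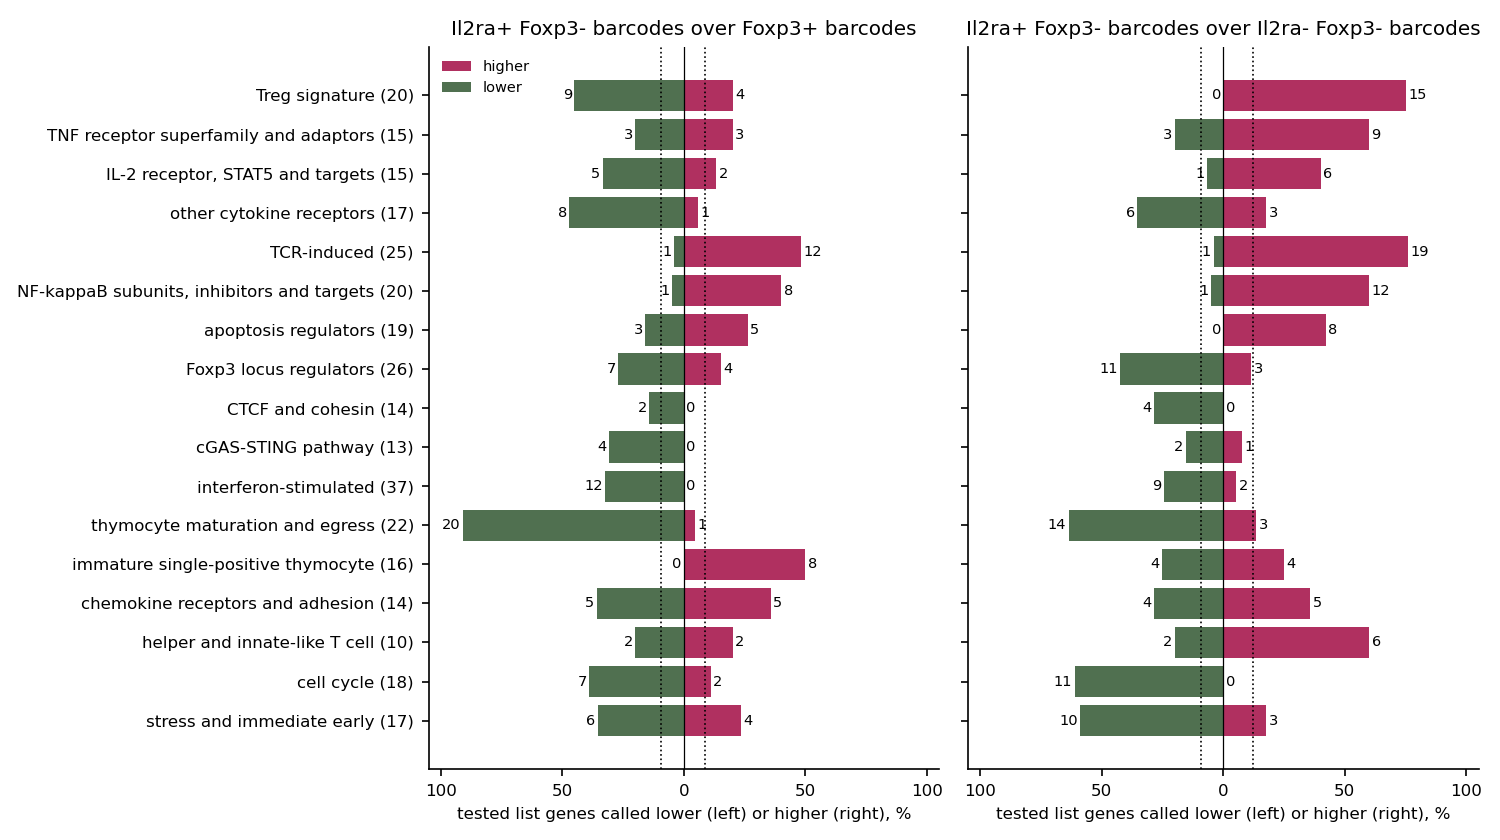
Percent of the tested genes of each list (n in parentheses) that were higher or lower in Il2ra+ Foxp3- cells than in Foxp3+ cells and than in Il2ra- Foxp3- cells (adjusted p under 0.05), with gene counts at the bars and dotted lines at the percent of all genes tested. TCR-induced and NF-kappaB genes lean higher in both comparisons, and maturation and egress genes lean lower, with 20 of 22 lower than in Foxp3+ cells.

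Genes of late thymocyte maturation and exit were lower in Il2ra+ Foxp3- cells, most of all against Foxp3+ cells. Of 22 tested genes, 20 fell and 1 rose relative to Foxp3+ cells (median -0.75), against 9.59% and 8.69% of all genes. Relative to Il2ra- Foxp3- cells 14 fell and 3 rose (median -0.33), against 9.22% and 12.1% of all genes. S1pr1, the sphingosine-1-phosphate receptor that thymocytes use to leave the thymus, stood at 102 and 128 CPM in Il2ra+ Foxp3- cells (Cgas KO and WT), 314 and 309 in Foxp3+ cells and 181 and 158 in Il2ra- Foxp3- cells. It fell relative to both groups, by 1.49 ± 0.10 (adjusted p = 5.31e-10) and 0.54 ± 0.092 (0.000143), and after thinning it was detected in 15.1% and 17.7% of Il2ra+ Foxp3- cells (Cgas KO and WT), 44.2% and 43.8% of Foxp3+ cells and 25.3% and 23.9% of Il2ra- Foxp3- cells. Klf2, the transcription factor that activates S1pr1, stood at 805 and 963 CPM in Il2ra+ Foxp3- cells (Cgas KO and WT), 1474 and 1460 in Foxp3+ cells and 1116 and 1027 in Il2ra- Foxp3- cells. It fell by 0.78 ± 0.092 relative to Foxp3+ cells (adjusted p = 0.0014) and did not pass the threshold against Il2ra- Foxp3- cells (-0.27 ± 0.084, 0.072). The MHC class I genes H2-K1, H2-D1 and B2m, which mature thymocytes raise, fell relative to Foxp3+ cells by 0.57 ± 0.048, 0.57 ± 0.042 and 0.33 ± 0.038 (adjusted p = 1.09e-08, 1.54e-09 and 1.38e-06). Against Il2ra- Foxp3- cells these 3 genes differed by 0.01 to 0.14, and H2-K1 alone passed the threshold (adjusted p = 0.0289). Both H2-K1 calls were lost without the library block (0.128 against Foxp3+ and 0.694 against Il2ra- Foxp3- cells), and the last one also with DESeq2 (0.0687), with no filter on low counts (0.249) and among cells with both TCR chains (0.158). Ccr7, the receptor used for the sort, was the gene of the list that rose over Foxp3+ cells, with 1031 and 1053 CPM in Il2ra+ Foxp3- cells (Cgas KO and WT), 912 and 759 in Foxp3+ cells and 735 and 632 in Il2ra- Foxp3- cells. Its rise of 0.28 ± 0.057 over Foxp3+ cells (adjusted p = 0.00121) was lost without the library block (0.0688), with at least 3000 UMIs per cell (0.239), with at least 2 Il2ra UMIs (0.0668) and after thinning (0.145).

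Genes of immature single-positive thymocytes went the other way against Foxp3+ cells: 8 of 16 tested genes rose and 0 fell (median 0.25). Of all genes 8.69% rose and 9.59% fell. Relative to Il2ra- Foxp3- cells 4 rose and 4 fell (median -0.003), against 12.1% and 9.22% of all genes. Cd24a, whose product HSA is lost as thymocytes mature, stood at 149 and 120.0 CPM in Il2ra+ Foxp3- cells (Cgas KO and WT), 28.0 and 20.9 in Foxp3+ cells and 51.6 and 42.6 in Il2ra- Foxp3- cells. It rose over both groups, by 2.41 ± 0.14 and 1.51 ± 0.084 (adjusted p = 7.09e-11 and 6.77e-12). After thinning it was detected in 20.7% and 17.4% of Il2ra+ Foxp3- cells (Cgas KO and WT), 6.48% and 1.81% of Foxp3+ cells and 8.57% and 6.77% of Il2ra- Foxp3- cells. Itm2a, a gene of positively selected thymocytes, stood at 1132 and 1033 CPM in Il2ra+ Foxp3- cells (Cgas KO and WT), 615 and 590.3 in Foxp3+ cells and 1080 and 1118 in Il2ra- Foxp3- cells, and rose over Foxp3+ cells by 0.79 ± 0.050 (adjusted p = 2.83e-10). Rag1 was used by the rule, and Rag2 had 0 UMIs in Cgas KO and 1 UMI in WT Il2ra+ Foxp3- cells. Ccr8, a chemokine receptor of late CD4+ thymocytes, stood at 276 and 279 CPM in Il2ra+ Foxp3- cells (Cgas KO and WT), 107 and 115 in Foxp3+ cells and 151 and 189 in Il2ra- Foxp3- cells. It rose by 1.27 ± 0.094 and 0.71 ± 0.066 over these groups (adjusted p = 1.76e-09 and 3.94e-08). Of the 14 tested chemokine receptors and adhesion genes, 5 rose and 5 fell relative to Foxp3+ cells (median 0.19). Of all genes 8.69% and 9.59% did so. Relative to Il2ra- Foxp3- cells 5 rose and 4 fell (median -0.03), against 12.1% and 9.22% of all genes.

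**Figure D4:**
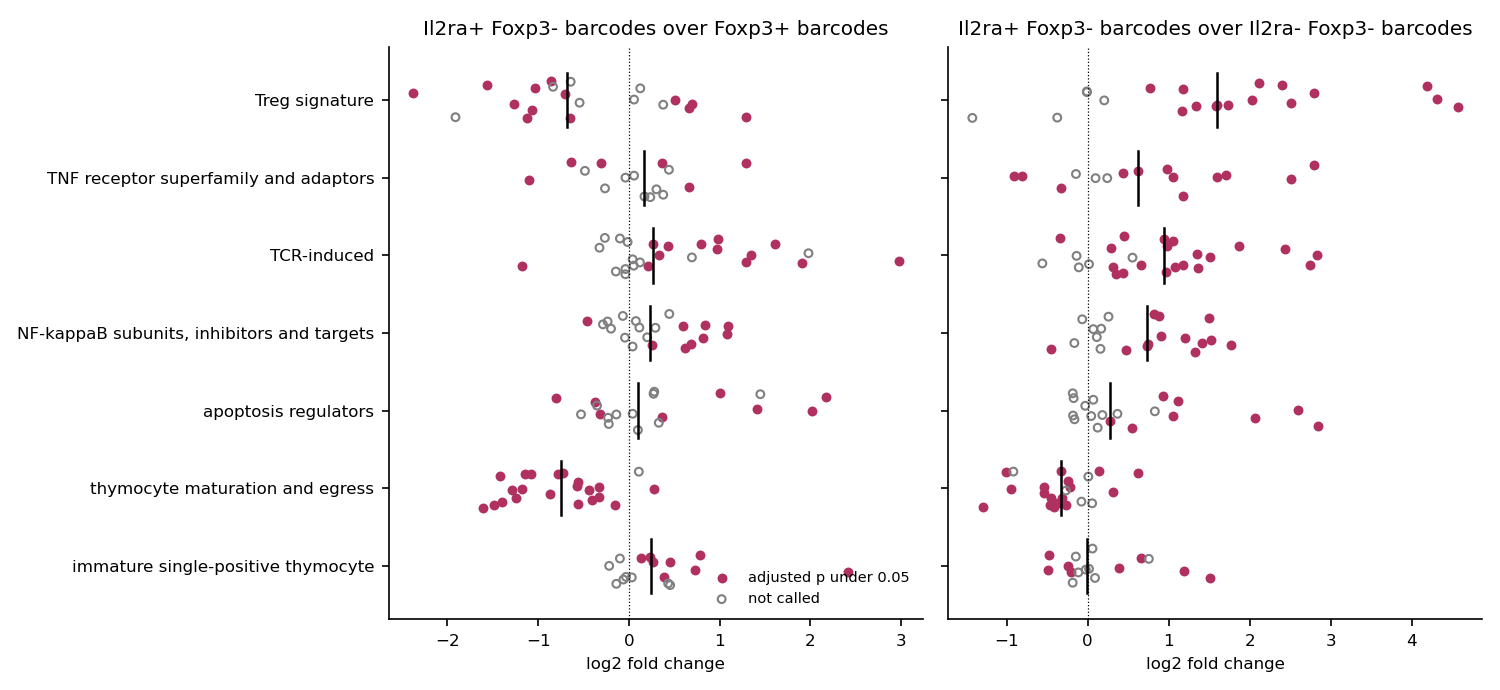
Log2 fold change of each tested gene (points) of selected lists in Il2ra+ Foxp3- cells over Foxp3+ cells and over Il2ra- Foxp3- cells, with filled points past an adjusted p of 0.05, open points not past it and bars at the medians. The maturation and egress genes have medians of -0.75 and -0.33, and the TCR-induced genes of 0.27 and 0.95.

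Regulators that act on the Foxp3 locus were mostly lower or little changed. Of 26 tested genes, 3 rose and 11 fell relative to Il2ra- Foxp3- cells (median -0.25), against 12.1% and 9.22% of all genes. The count of 3 is close to that share. Relative to Foxp3+ cells 4 rose and 7 fell (median -0.11), against 8.69% and 9.59% of all genes. Satb1, a genome organiser that acts before Foxp3 is expressed, stood at 1448 and 1182 CPM in Il2ra+ Foxp3- cells (Cgas KO and WT), 1199 and 1099 in Foxp3+ cells and 1939 and 1757 in Il2ra- Foxp3- cells. It fell by 0.49 ± 0.039 relative to the last group (adjusted p = 2.73e-09). Foxo1, an activator of Foxp3, fell relative to both groups, with 179 and 157 CPM in Il2ra+ Foxp3- cells (Cgas KO and WT), 293 and 291 in Foxp3+ cells and 235 and 222 in Il2ra- Foxp3- cells (by 0.87 ± 0.076 and 0.45 ± 0.065, adjusted p = 2.34e-08 and 1.83e-05). Bcl11b and Ets1, which T cells need to express Foxp3, fell relative to Foxp3+ cells by 0.75 ± 0.069 and 0.54 ± 0.048 (adjusted p = 4.2e-08 and 3.02e-08). Lef1 and Tcf7 fell relative to Il2ra- Foxp3- cells by 0.57 ± 0.041 and 0.39 ± 0.042 (adjusted p = 4.57e-10 and 3.24e-07). Nfatc1, a calcium-driven factor, rose over both groups by 0.74 ± 0.12 and 0.57 ± 0.088 (adjusted p = 0.000124 and 4.74e-05), and both calls were lost after thinning (0.351 and 0.383). Of the 14 tested CTCF and cohesin genes, 0 rose and 2 fell relative to Foxp3+ cells (median -0.16) and 0 rose and 4 fell relative to Il2ra- Foxp3- cells (median -0.18). Over all genes 9.59% fell relative to Foxp3+ cells and 9.22% relative to Il2ra- Foxp3- cells, so the first count is close to the background. Ctcf stood at 139.6 and 134 CPM in Il2ra+ Foxp3- cells (Cgas KO and WT), 146 and 146 in Foxp3+ cells and 164 and 157 in Il2ra- Foxp3- cells. It fell by 0.23 relative to the last group (adjusted p = 0.0176), a call lost with DESeq2 (0.246), without the library block (0.0523) and after thinning (0.566).

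Sensing of DNA by cGAS, the enzyme of the deleted gene, signals through STING to interferon genes. Of 13 tested genes of this pathway, 0 rose and 4 fell relative to Foxp3+ cells (median -0.099), and 1 rose and 2 fell relative to Il2ra- Foxp3- cells (median -0.105). The counts against Il2ra- Foxp3- cells are close to the shares over all genes, 12.1% higher and 9.22% lower, and 9.59% of all genes fell relative to Foxp3+ cells. Sting1 stood at 54.5 and 59.2 CPM in Il2ra+ Foxp3- cells (Cgas KO and WT), 71.1 and 97.7 in Foxp3+ cells and 63.4 and 70.9 in Il2ra- Foxp3- cells. It fell by 0.65 ± 0.13 relative to Foxp3+ cells (adjusted p = 0.000973), a call lost after thinning (0.691). Samhd1, a dNTPase that limits viral DNA synthesis, stood at 234 and 249 CPM in Il2ra+ Foxp3- cells (Cgas KO and WT), 371 and 452 in Foxp3+ cells and 269 and 314 in Il2ra- Foxp3- cells. It fell relative to both groups by 0.84 ± 0.068 and 0.28 ± 0.059 (adjusted p = 7e-09 and 0.00142). Its call against Il2ra- Foxp3- cells was lost without the library block (0.122) and when the comparison cells were not held to the Cd8a, Cd8b1 and Rag1 conditions (0.785), and after thinning the log2 difference was 0.099 (0.732). Of 37 tested interferon-stimulated genes, 0 rose and 12 fell relative to Foxp3+ cells (median -0.32), and 2 rose and 9 fell relative to Il2ra- Foxp3- cells (median -0.10). Ifi27l2a fell by 0.61 ± 0.046 relative to Foxp3+ cells (adjusted p = 2.74e-09) and rose by 0.28 ± 0.043 over Il2ra- Foxp3- cells (3.59e-05). It was the most abundant gene of the list, with 1011 and 1138 CPM in Il2ra+ Foxp3- cells (Cgas KO and WT), 1557 and 1596 in Foxp3+ cells and 892 and 883 in Il2ra- Foxp3- cells.

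The largest single rises included genes that few of the cells expressed. Xcl1, a chemokine that attracts cross-presenting dendritic cells, stood at 42.2 and 121 CPM in Il2ra+ Foxp3- cells (Cgas KO and WT), 0 and 2.62 in Foxp3+ cells and 2.85 and 3.78 in Il2ra- Foxp3- cells. In the Cgas KO library this was at least 20.6-fold over Foxp3+ cells, taking 3 UMIs per library as the floor for a count of 0. The call against Foxp3+ cells (adjusted p = 3.74e-09) was lost without the library block (0.0536) and when the comparison cells were not held to the Cd8a, Cd8b1 and Rag1 conditions (0.0652). The UMIs came from 12 Cgas KO cells (65 UMIs) and 14 WT cells (223 UMIs), of which the top 2 cells held 37 and 147. Those 12 and 14 cells had medians of 9213.5 and 8631 UMIs, against 5069 and 5364.5 in the cells without Xcl1, and held Tnfrsf9 at 697 and 1164 CPM, against 413 and 390.1. Bhlhe40, a transcription factor of activated T cells, stood at 32.5 and 56.5 CPM in Il2ra+ Foxp3- cells (Cgas KO and WT), 17.1 and 10.5 in Foxp3+ cells and 3.29 and 3.53 in Il2ra- Foxp3- cells. It rose by 3.71 ± 0.25 over the last group (adjusted p = 1.58e-10). Pdzk1ip1 stood at 31.2 and 21.2 CPM in Il2ra+ Foxp3- cells (Cgas KO and WT), 1.37 and 3.05 in Foxp3+ cells and 2.46 and 2.28 in Il2ra- Foxp3- cells. It rose by 3.36 ± 0.46 and 3.45 ± 0.30 (adjusted p = 1.05e-05 and 9.13e-09). The other genes most raised over Il2ra- Foxp3- cells were Hopx, Itgb8, Coro2a and Myo1e, by 3.49 to 3.85. Hopx and Coro2a were at the same time lower than in Foxp3+ cells, by log2 differences of -0.98 ± 0.14 and -1.43 ± 0.21 (adjusted p = 1.91e-05 and 2.79e-05). Both calls were lost with at least 2 Il2ra UMIs (0.228 and 0.167) and after thinning (0.581 and 0.455), and that of Hopx without the library block (0.256). Itgb8, the integrin chain that activates TGF-beta, and Myo1e, a class I myosin, did not differ from Foxp3+ cells past the threshold. Against Foxp3+ cells the most raised genes further included Chsy1 and Smyd5, by 2.33 ± 0.32 and 2.005 ± 0.29 (adjusted p = 1.09e-05 and 2e-05), the Smyd5 call being lost after thinning (0.199).

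Genes that fell most relative to Foxp3+ cells included, beside Gpr83, S1pr1 and Oas1a, the chemokine gene Ccl5, the innate sensor Nod1, Camk2n1, Gsta4, Emc9, Ift80 and Cyth4, by 1.46 to 2.05. Gsta4, a glutathione transferase, stood at 22.7 and 32.6 CPM in Il2ra+ Foxp3- cells (Cgas KO and WT), 74.5 and 92.9 in Foxp3+ cells and 7.77 and 12.0 in Il2ra- Foxp3- cells, so it lay between the groups. The calls of Ccl5 (0.106) and Oas1a (0.0628) were lost without the library block, and these 2 and those of Nod1, Gsta4 and Emc9 after thinning (0.0698 to 0.836). Ccl5 was also lost among cells with both TCR chains (0.565) and Oas1a with at least 2 Il2ra UMIs (0.0939). Of 22 listed helper and innate-like markers, 10 had enough UMIs to be tested. Relative to Il2ra- Foxp3- cells 6 rose and 2 fell (median 0.74), against 12.1% and 9.22% of all genes. Those that rose included Xcl1 and Bhlhe40, described above, and Il18r1, by 0.81 ± 0.27 (adjusted p = 0.038). Relative to Foxp3+ cells 2 rose and 2 fell (median 0.07), against 8.69% and 9.59% of all genes. Zbtb16, which encodes PLZF, the defining factor of natural killer T cells, had no UMI in Il2ra+ Foxp3- cells of either library, and stood at 3.46 CPM in Cgas KO and 1.75 CPM in WT Il2ra- Foxp3- cells, at least 1.78-fold and 1.08-fold above the floor of 3 UMIs in the Il2ra+ Foxp3- cells. Its call was lost without the library block (0.077) and with at least 2 Il2ra UMIs (0.103). Il4, Il13, Il17a, Il17f, Il22 and Ifng also had no UMI in the Il2ra+ Foxp3- cells.

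Proliferation genes were lower, above all those of mitosis. Of 18 tested cell cycle genes, 0 rose and 11 fell relative to Il2ra- Foxp3- cells (median -0.63). Of all genes 12.1% and 9.22% did so. Relative to Foxp3+ cells 2 rose and 7 fell (median -0.39), against 8.69% and 9.59% of all genes. Mki67 stood at 30.5 and 18.5 CPM in Il2ra+ Foxp3- cells (Cgas KO and WT), 53.3 and 44.9 in Foxp3+ cells and 70.7 and 69.0 in Il2ra- Foxp3- cells. It fell by 1.07 ± 0.19 and 1.54 ± 0.15 (adjusted p = 0.000295 and 4.59e-08). Prc1, Cenpf, Cdk1, Ccnb2, Ube2c, Nusap1, Tpx2, Kif11, Knl1 and Mki67 were the 10 genes that fell most relative to Il2ra- Foxp3- cells, by 1.54 to 2.16. Calls lost in alternatives were those of Nusap1 with DESeq2 (0.175), without the library block (0.166) and among cells with both TCR chains (0.0632), of Ube2c in 4 alternatives (0.0643 to 0.0856), of Kif11 without the block (0.0779), and of Kif11, Cenpf and Ccnb2 after thinning (0.0995 to 0.361). The call of Mki67 against Foxp3+ cells was lost after thinning (0.941). The helicase genes Mcm2 and Mcm5, of DNA replication, rose over Foxp3+ cells instead, by 0.79 ± 0.17 and 0.58 ± 0.17 (adjusted p = 0.00197 and 0.0175), both calls being lost after thinning (0.083 and 0.356). That of Mcm5 was also lost with DESeq2 (0.0665) and without cells of 2 or more beta chains (0.0738). Of 17 tested stress and immediate early genes, 3 rose and 10 fell relative to Il2ra- Foxp3- cells (median -0.22). Of all genes 12.1% and 9.22% did so. Relative to Foxp3+ cells 4 rose and 6 fell (median -0.22), against 8.69% and 9.59% of all genes. Fos stood at 125 and 117 CPM in Il2ra+ Foxp3- cells (Cgas KO and WT), 189 and 176 in Foxp3+ cells and 179.6 and 170.4 in Il2ra- Foxp3- cells. It fell by 0.66 ± 0.086 and 0.53 ± 0.070 (adjusted p = 6.95e-06 and 5.21e-06). Jun fell by 0.63 ± 0.060 and 0.34 ± 0.052 (adjusted p = 8.3e-08 and 3.33e-05). Both Fos calls and that of Jun against Foxp3+ cells were lost after thinning (0.207, 0.815 and 0.0513), and the log2 difference of Jun from Il2ra- Foxp3- cells was then 0.047 (0.869).

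In all, 1075 genes rose and 1187 fell relative to Foxp3+ cells, and 1494 rose and 1141 fell relative to Il2ra- Foxp3- cells. With 1 cell kept per set of identical TCR chains the counts were 1062 and 1168, and 1490 and 1134. The 2 libraries stand as the replicates of this fit and differ in genotype. With the library as a block, the p-values measure how far the group differences vary between these 2 libraries. They do not measure the spread between mice. DESeq2 called fewer genes, 722 and 702 against Foxp3+ cells and 791 and 478 against Il2ra- Foxp3- cells. Markers of other cells are given for what moved beside these results. Over all genes, 12.1% rose and 9.22% fell relative to Il2ra- Foxp3- cells, and 8.69% rose and 9.59% fell relative to Foxp3+ cells. Of the CD8 T cell list, whose members Cd8a and Cd8b1 the rule used, 2 of 4 tested genes rose and 0 fell relative to Il2ra- Foxp3- cells (median 1.17). Relative to Foxp3+ cells 1 of the 4 rose and 1 fell. Its other 5 markers summed to 94.8 and 104 CPM in Il2ra+ Foxp3- cells (Cgas KO and WT), 64.9 and 95.1 in Foxp3+ cells and 59.0 and 66.6 in Il2ra- Foxp3- cells. The 2 that rose were the cytotoxic granule gene Nkg7, by 2.82 ± 0.26 (adjusted p = 3.94e-08), and the integrin gene Itgae, by 2.03 ± 0.55 (0.00894). Against comparison cells not held to the Cd8a, Cd8b1 and Rag1 conditions, which include CD8-lineage cells, the log2 differences of Nkg7 and Itgae were -0.034 and -0.46 (adjusted p = 0.936 and 0.477). The part of CD8-lineage cells in the results was not tested. Of the dendritic cell list, 0 of 8 tested genes passed the threshold in either comparison, which for so few genes is close to the shares over all genes. Xcr1, Siglech, Batf3 and Ccl22 were at 0 in the Il2ra+ Foxp3- cells of both libraries. Cd74 of this list went the other way. After thinning it was detected in 17.1% and 17.4% of Il2ra+ Foxp3- cells (Cgas KO and WT). The shares were 4.32% and 8.29% in Foxp3+ cells and 8.86% and 8.38% in Il2ra- Foxp3- cells. The summed dendritic cell markers stood at 208 and 239 CPM in Il2ra+ Foxp3- cells, with 9 and 10 of 16 markers detected. They stood at 129.8 and 410.1 in Foxp3+ cells, where a single WT cell held 562 of the UMIs. In Il2ra- Foxp3- cells they stood at 170.0 and 169. B cell markers summed to 35.7 and 29.9 CPM, with Ms4a1 and Igkc at 0, and macrophage markers to 0 and 1.09 CPM in the Il2ra+ Foxp3- cells. Natural killer T and innate lymphoid markers summed to 262 and 278 CPM there, with Zbtb16, Klrb1c, Klrb1b, Ncr1, Tyrobp and Il23r at 0. They summed to 246 and 259 CPM in Foxp3+ cells and 222 and 259 in Il2ra- Foxp3- cells. Of 5 tested genes of this list, 2 rose and 2 fell relative to Il2ra- Foxp3- cells, and 0 passed the threshold against Foxp3+ cells. Gamma delta T cell markers summed to 6.49 and 2.71 CPM in Il2ra+ Foxp3- cells. Cells with 2 or more TCR beta chains, which include doublets, were 9.56% and 12.2% of Il2ra+ Foxp3- cells (Cgas KO and WT), 12.6% and 9.07% of Foxp3+ cells and 7.75% and 7.15% of Il2ra- Foxp3- cells. The part of doublets in the results was not tested beyond leaving these cells out.

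Il2ra+ Foxp3- cells varied among themselves along the amount of Il2ra and along maturity. Cells with 2 or more Il2ra UMIs, compared with those at the threshold of 1 UMI, held more of the receptors, as a description without a test. Tnfrsf4 stood at 1212 and 1248 CPM (Cgas KO and WT) in the 87 and 117 cells with 2 or more Il2ra UMIs, and at 619 and 487 CPM in the 164 and 171 cells with 1 UMI. Il2rb stood at 172 and 204 CPM (Cgas KO and WT) with 2 or more Il2ra UMIs and at 58.5 and 94.4 with 1 UMI, and Cish at 143 and 165 against 83.5 and 79.0. Nr4a1 was not higher in both libraries, with 829 and 968 CPM (Cgas KO and WT) with 2 or more Il2ra UMIs and 882.1 and 769.6 with 1 UMI. The split uses the count that chose the cells, and the cells with 2 or more Il2ra UMIs were also deeper, with medians of 5788 and 5876 UMIs (Cgas KO and WT), against 4866 and 5320 with 1 UMI. Just outside the rule, 39 Cgas KO and 52 WT cells had Il2ra and exactly 1 Foxp3 UMI, with Tnfrsf4 at 924 and 799 CPM, Tnfrsf9 at 259 and 192, Nr4a1 at 388 and 284, Cd24a at 13.9 and 10.7 and Il2rb at 333 and 476.

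Tnfrsf9 marked another axis. The 133 Cgas KO and 169 WT Il2ra+ Foxp3- cells with a Tnfrsf9 UMI held Tnfrsf4 at 1136 and 1109 CPM and Ikzf2 at 1322 and 1196 CPM, and the 118 and 119 cells without one held Tnfrsf4 at 454 and 308 and Ikzf2 at 501 and 429. Bcl2 ran the other way, with 303 and 289 CPM (Cgas KO and WT) in cells with Tnfrsf9 and 738 and 768 in cells without it, as did Il7r, with 97.8 and 75.7 against 266 and 278. S1pr1 separated cells by maturity: in the 77 Cgas KO and 103 WT cells with an S1pr1 UMI, Klf2 stood at 1248 and 1573 CPM, Itm2a at 775 and 684 and Cd24a at 82.0 and 82.9. In the 174 and 185 cells without S1pr1 (Cgas KO and WT), Klf2 stood at 599.6 and 609, Itm2a at 1297 and 1235 and Cd24a at 181 and 141. Cells with an egress receptor thus had more Klf2 and less Cd24a in both libraries. The subsets were cut on 1 transcript, and cells with Tnfrsf9 had medians of 5609 and 6015 UMIs (Cgas KO and WT), against 4657 and 4744 without it.

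TCR sequences gave no segment that set the Il2ra+ Foxp3- cells apart. Of 161 V and J segments tested with edgeR, 0 (0.0%) passed an adjusted p of 0.05 against Foxp3+ cells and 0 (0.0%) against Il2ra- Foxp3- cells. In these comparisons 6 and 9 had an unadjusted p under 0.05, and the lowest adjusted p was 0.726 and 0.711. Both chains were found in 78.5% of Cgas KO and 78.1% of WT Il2ra+ Foxp3- cells, and no contig in 9.96% and 9.72%, against 10.4% and 10.6% of Foxp3+ cells and 4.66% and 5.67% of Il2ra- Foxp3- cells. A hydrophobic residue at position 6 or 7 of the beta CDR3, a feature linked to self-reactivity, was present in 25% (95% exact interval 19.5 to 31.2) and 29.7% (24.1 to 35.8) of beta-chain Il2ra+ Foxp3- cells (Cgas KO and WT), 29.2% and 29.1% of Foxp3+ cells and 28.8% and 28.4% of Il2ra- Foxp3- cells. The invariant TRAV11-TRAJ18 chain of natural killer T cells was seen in 0 of 199 Cgas KO and 0 of 236 WT cells with an alpha chain (upper exact limits 1.84% and 1.55%). Clonotypes were counted in cells with exactly 1 alpha and 1 beta chain, which were 153 of 251 Cgas KO and 161 of 288 WT Il2ra+ Foxp3- cells. They held 145 clonotypes in Cgas KO, 16 of them seen in 2 cells of the library, and 161 in WT, none of them repeated, and no clonotype occurred in both libraries. The 2 WT cells in a set of identical chains, given above, were not among those counted here. A Foxp3+ cell shared its receptor with an Il2ra+ Foxp3- cell in 1 pair of the Cgas KO library, and the CDR3 sequences of that clonotype, TRAV14N-3 with TRAJ34 and TRBV31 with TRBJ2-5, are shown because no other clonotype spanned these groups.
alpha CDR3: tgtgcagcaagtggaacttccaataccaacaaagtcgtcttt
beta CDR3: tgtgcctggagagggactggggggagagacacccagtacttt

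Between genotypes, fewer of the cells were Il2ra+ Foxp3- in the Cgas KO library, as were fewer Foxp3+ cells, with 1 library each and therefore no test. Intervals here cover counting error only and leave out the spread between mice. Il2ra+ Foxp3- cells were 1.75% (1.54 to 1.97) of kept cells in Cgas KO and 2.23% (1.98 to 2.497) in WT, a ratio of 0.784 (0.659 to 0.931). After thinning to 2000 UMIs the rule took 202 and 214 cells, 1.41% and 1.66% (Cgas KO and WT), and the ratio was 0.849 (0.697 to 1.03). Its interval then included equal shares. With 1 cell kept per set of identical TCR chains, 237 of 13798 and 287 of 12911 cells remained, a ratio of 0.773 (0.648 to 0.921). Foxp3+ cells were 1.93% in Cgas KO and 2.99% in WT, a ratio of 0.648 (0.553 to 0.757), and cells with both Il2ra and Foxp3 were 0.633% and 1.11%, a ratio of 0.572 (0.435 to 0.749). Of the Il2ra+ cells meeting the other conditions, 73.4% in Cgas KO and 66.8% in WT had no Foxp3 UMI, a ratio of 1.10. The exact binomial intervals of these shares were 68.4 to 78.0 in Cgas KO and 62.2 to 71.25 in WT. A count of 0 does not show that Foxp3 was absent: 66.2% of Cgas KO and 56.2% of WT Foxp3+ cells had exactly 1 Foxp3 UMI, and after thinning 54.7% and 58.8% still had one. The CD8-lineage share with an Il2ra UMI was also lower in Cgas KO, 1.88% against 2.30% in WT (ratio 0.817, 0.468 to 1.42).

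The genes that describe Il2ra+ Foxp3- cells had nearly the same level in both libraries. The ratio of Cgas KO to WT was 1.03 for Tnfrsf4 (95% counting interval 0.955 to 1.11), 0.984 for Tnfrsf9 (0.887 to 1.09), 1.07 for Tnfrsf18 (0.960 to 1.19), 1.06 for Ikzf2 (0.984 to 1.13) and 1.01 for Nr4a1 (0.936 to 1.08). Past 1.5-fold on log2(CPM + 1) were 61 genes higher and 77 lower in Cgas KO, which is 1.12% and 1.42% (2.54% in all) of the 5439 genes with at least 100 UMIs and 20 CPM. These are differences of 2 libraries with no replicate check. With 1 cell kept per set of identical TCR chains the counts were 51 and 79. Of the 61, 48 were past 1.5-fold the same way neither in Foxp3+ nor in Il2ra- Foxp3- cells, as were 63 of the 77. How many of all 5439 genes were past 1.5-fold in those groups was not counted. The genes were picked by their values in Il2ra+ Foxp3- cells, so these counts do not show differences particular to these cells. Of the Treg list, 2 of 13 genes measured at this depth were past the limit, both lower: Izumo1r, which encodes folate receptor 4, with 177 CPM in Cgas KO and 273 in WT (ratio 0.649, 0.558 to 0.754), and Ikzf4, with 37.7 CPM in Cgas KO and 69.5 in WT (0.542, 0.390 to 0.745). Ctla4 and Il2rb were within it, at 0.769 (0.620 to 0.951) and 0.712 (0.580 to 0.872). Of the TCR-induced and NF-kappaB lists, 0 of 21 and 0 of 20 genes were past it, and 0 of 24 interferon-stimulated genes. Of 12 cell cycle genes 4 were higher in Cgas KO (median log2 difference 0.38, all genes 0.005), among them Top2a with 81.8 CPM in Cgas KO and 39.6 in WT (2.06, 1.54 to 2.79) and Hmgb2 with 291 in Cgas KO and 192 in WT (1.51, 1.31 to 1.75). Top2a was detected in 23 Cgas KO and 28 WT Il2ra+ Foxp3- cells (9.16% and 9.72%), so the share of cells with it was not larger in Cgas KO. Counting intervals are too narrow where few cells hold the UMIs. Top2a levels did not differ like this in the other groups. They were 101 CPM in Cgas KO and 94.2 in WT Foxp3+ cells, and 127 in Cgas KO and 121 in WT Il2ra- Foxp3- cells.

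**Figure D5:**
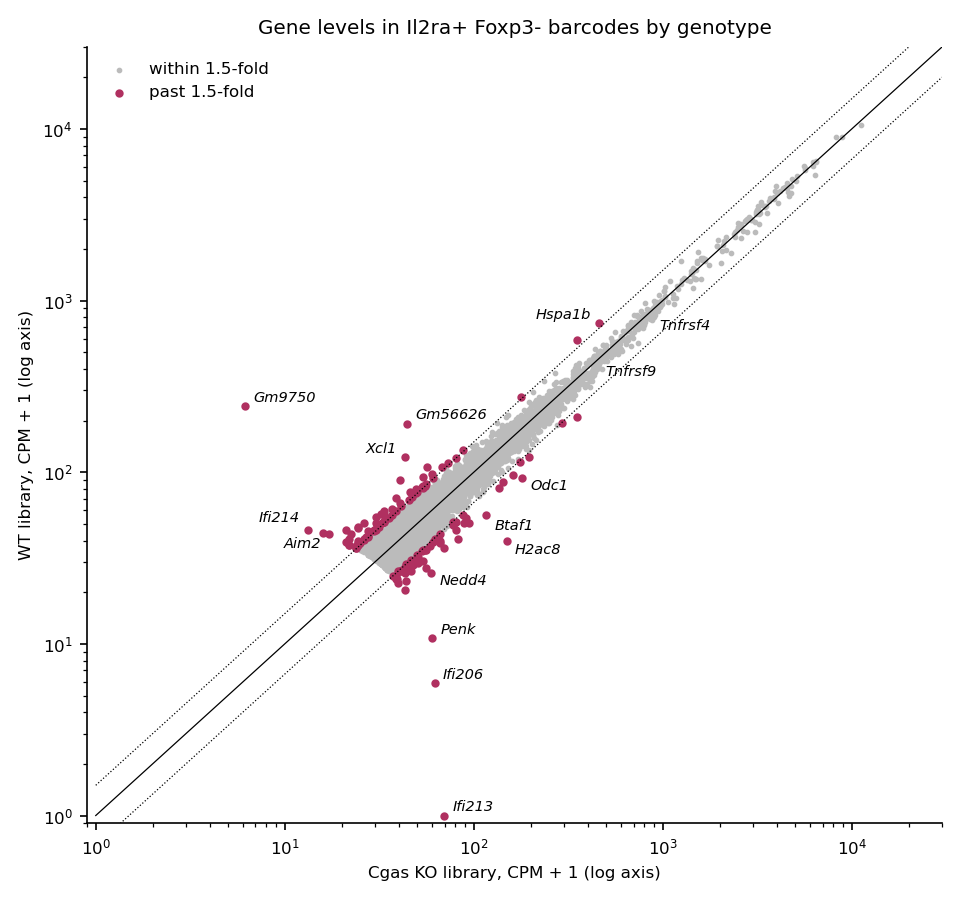
Level of each of 5439 genes in Il2ra+ Foxp3- cells of the Cgas KO library (x axis) and of the WT library (y axis), both as CPM + 1 on log axes, with dotted lines at 1.5-fold. Tnfrsf4 and Tnfrsf9 lie on the diagonal, and Ifi213, Ifi206 and Gm9750 lie farthest from it.

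The highest ratios among the genes named by the rule, those of Ifi213 and Ifi206, lay in a stretch of interferon-inducible genes on chromosome 1 whose members differed in the same direction in every group of cells. Ifi213 had 106 UMIs in Cgas KO Il2ra+ Foxp3- cells (68.8 CPM) and 0 in WT, at least 42.3-fold, and stood at 103.2 CPM in Cgas KO and 0 in WT among Foxp3+ cells and at 97.01 in Cgas KO and 1.15 in WT among Il2ra- Foxp3- cells. Ifi206 stood at 61.0 CPM in Cgas KO and 4.89 in WT Il2ra+ Foxp3- cells (ratio 12.5, 6.31 to 28.2). With 5 CPM added before the log, the log2 ratios of Ifi213 and Ifi206 were 3.88 and 2.74, against 6.13 and 3.40 with 1 CPM. Ifi214 stood at 12.3 in Cgas KO and 45.1 in WT (0.274, 0.157 to 0.455). Aim2, which encodes the DNA sensor of an inflammasome, stood at 16.2 CPM in Cgas KO and 42.9 in WT (0.378, 0.231 to 0.600), and Ifi209 at 79.9 in Cgas KO and 49.95 in WT (1.60, 1.21 to 2.12). Aim2, Ifi206, Ifi214, Ifi213 and Ifi209 are consecutive protein-coding genes of GRCm38.p6 in RefSeq, at chr1:173349547-173647928, some higher and some lower in Cgas KO. They are related copies, and counting may split reads between them. A pair of genes outside the naming rule, picked after their values were seen, showed gaps of this kind: Gm9750 had 8 UMIs in Cgas KO and 447 in WT Il2ra+ Foxp3- cells, and Gm56626 had 67 in Cgas KO and 352 in WT. In Il2ra- Foxp3- cells Gm9750 stood at 6.31 CPM in Cgas KO and 248 in WT, and in Foxp3+ cells at 12.98 in Cgas KO and 252 in WT. Btaf1 was likewise higher in Cgas KO in all 3 groups, with 116 CPM in Cgas KO and 55.4 in WT Il2ra+ Foxp3- cells (2.09, 1.63 to 2.69). Whether anything other than Cgas differs between the mice of the 2 libraries was not tested.

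Other gaps rested on few cells or were smaller in the other groups. Penk, which encodes proenkephalin and is expressed by some Treg cells, had 91 UMIs in 6 Cgas KO cells and 18 UMIs in 4 WT cells (6.05, 3.62 to 10.7), and Xcl1 stood at 42.2 CPM in Cgas KO and 121 in WT (0.349, 0.260 to 0.461) on the 12 and 14 cells described above. Counting intervals are too narrow where single cells hold so many UMIs. H2ac8, a histone H2A gene, stood at 148 CPM in Cgas KO and 38.5 in WT (3.84, 2.93 to 5.09), from 43 and 38 cells. With at least 2 Il2ra UMIs the log2 ratio of H2ac8 was 2.70, against 1.91 with at least 1, and that of Xcl1 was -2.70, against -1.50. Odc1, the enzyme that starts polyamine synthesis, stood at 179 CPM in Cgas KO and 91.8 in WT Il2ra+ Foxp3- cells (1.95, 1.60 to 2.37), 51.3 in Cgas KO and 41.0 in WT Foxp3+ cells and 58.3 in Cgas KO and 34.8 in WT Il2ra- Foxp3- cells. After thinning, with the cells chosen anew, the log2 ratio of Odc1 in Il2ra+ Foxp3- cells was 1.83, against 0.95 before it. Tnfsf8, which encodes the CD30 ligand, stood at 55.8 CPM in Cgas KO and 107 in WT Il2ra+ Foxp3- cells (0.522, 0.400 to 0.676), 86.1 in Cgas KO and 71.1 in WT Foxp3+ cells and 20.8 in Cgas KO and 21.1 in WT Il2ra- Foxp3- cells. The heat shock genes Hspa1a and Hspa1b, near-identical copies that respond to handling, were lower in Cgas KO in every group, with ratios of 0.598 (0.538 to 0.664) and 0.620 (0.565 to 0.679) in Il2ra+ Foxp3- cells. The remaining genes named by the rule were Nedd4, H1f5 and Tipin, higher in Cgas KO by ratios of 2.05 to 2.34, and Sntb1, Leng8, Crim1, St8sia6, Trappc14 and Smpdl3a, lower by ratios of 0.447 to 0.530.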

How the data were processed

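CD4+CCR7+ thymocytes were profiled by droplet single-cell RNA-seq with TCR sequencing, 1 library of each kind per genotype. The authors deposited raw UMI counts per gene and barcode over 33696 features, unfiltered, and TCR contig tables. Per the submitters' processing notes, the build was mm10 and the tools were Seurat 5.1.0 and Cell Ranger 7.0. The file headers name Cell Ranger 8.0.1 instead, and no source used here says which release made the counts.

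Counts were summed per group and library, giving 6 sums, and genes with at least 100 UMIs over the sums were tested with edgeR 4.0.16 (limma 3.58.1, R 4.3.3): TMM normalization, quasi-likelihood F test with a library block, Benjamini-Hochberg adjusted p under 0.05. The members and gene lists were chosen with earlier results of these data known. Named genes were the 10 with the largest change in each direction among those past the threshold, changed the same way in both libraries and at 20 CPM or more in a group compared (between genotypes, the 10 highest and 10 lowest ratios past 1.5-fold). Receptor segments, mitochondrial, ribosomal, sex-linked and haemoglobin genes and provisional gene models were left out. A fixed set around Il2ra, Foxp3 and Cgas and up to 4 members of each list farthest from a ratio of 1 were added; further list members and markers in the text were chosen after their values were seen. The library block pairs groups because each library supplied cells of all 3. Barcodes stand for cells, and the libraries may hold pooled mice. Between genotypes a ratio of 1.5 on log2(CPM + 1) was used, with exact Poisson and binomial intervals at 95%, which cover counting error only; UMIs of a cell are not independent samples. The floor for a count of 0 was 3 UMIs. Doublets were not removed; leaving out cells with 2 or more beta chains or with at least 10 dendritic marker UMIs were alternatives, beside DESeq2 1.42.0 and its size factors, no count filter, no block, thinning to 2000 UMIs, other UMI, mitochondrial and Il2ra limits, ungated comparison cells, cells with both TCR chains and leaving out a library; keeping 1 cell per set of identical chains was added after seeing the data. The edgeR step was tested on simulated data. Python 3.11.15 with numpy 2.4.6, scipy 1.17.1, pandas 2.3.3 and matplotlib 3.10.9 did the rest. Promoters came from RefSeq on GRCm38.p6.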

Additional observations from a re-analysis of the deposited data

Results flagged for a closer look

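Among the fixed set and the up to 4 genes named per list, 4 genes had the 2 libraries on opposite sides of a comparison group. Genes outside this set were not searched, and some also did so. The log2 difference of Tnfsf8 from Foxp3+ cells, for one, was -0.62 in Cgas KO and 0.58 in WT. With 1 library each the difference between genotypes was not tested. The log2 difference of Il2ra+ Foxp3- from Il2ra- Foxp3- cells was 0.39 in Cgas KO and -0.37 in WT for Gpr83, -0.47 in Cgas KO and 0.32 in WT for Ifnar2, and 0.42 in Cgas KO and -0.44 in WT for Mcm3. For Egr1 the log2 difference from Foxp3+ cells was 0.58 in Cgas KO and -0.38 in WT.

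The TCR tables, which the expression comparisons do not use, held 583 sets of cells with identical chains in the Cgas KO library, against 17 sets in WT. Of the Cgas KO sets, 19 held an Il2ra+ Foxp3- cell: in 8 both cells were of that class, in 1 the other was Foxp3+, in 9 it was Il2ra- Foxp3- and in 1 it met none of these rules. Their source was not tested.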

How the results depend on the processing

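The fits with the library as a block called 1075 genes higher and 1187 lower than in Foxp3+ cells, and 1494 and 1141 against Il2ra- Foxp3- cells. With no replicate block they called 961 and 948, and 1226 and 822. Against Foxp3+ cells, DESeq2 called 702 lower, and thinning to 2000 UMIs gave 284 higher and 290 lower; 252 of the 284 were called higher before thinning. Against Il2ra- Foxp3- cells, DESeq2 called 791 higher and 478 lower, and thinning gave 557 and 340. The cause of the DESeq2 difference was not tested. Thinning leaves fewer UMIs, and the groups were then formed anew from the thinned counts, so both depth and cells changed. Between genotypes, the 61 higher and 77 lower genes became 198 and 190 with at least 50 UMIs and 10 CPM, 19 and 27 with at least 200 UMIs, and 16 and 36 after thinning, and 42 were lower with 5 CPM added before the log. Of 2476 alternative values with a test for 191 gene results, 2324 kept direction and side of the threshold, 148 kept direction and lost the threshold, and 4 reversed. Against Il2ra- Foxp3- cells these were Samhd1 (0.099) and Jun (0.047) after thinning, and Nkg7 (-0.034) and Itgae (-0.46) with comparison cells not held to the Cd8a, Cd8b1 and Rag1 conditions. The share ratio ranged over 0.669 to 0.849. Leaving out a library leaves no residual degrees of freedom, so those 382 values have no test. All kept their direction, which is no support. The genes had been called in the fit of both libraries, and the most changed ones were named only if both libraries went the same way. Depth limits genes of few UMIs, and 1 library per genotype limits every statement on Cgas.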
